A study of Danio rerio with 21 samples.

Results

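Livers of zebrafish larvae that lacked srebf2 on top of a sec31a mutation were compared with livers carrying the sec31a mutation alone. The 6 libraries were chosen by their labelled genotype and age, and they are 3 libraries of the double mutant (srebf2-/-;sec31anju221) and 3 of the single mutant (sec31anju221) out of 21 libraries of 7 genotypes in the series. All were low-input RNA-seq libraries from livers dissected at 7 dpf (days post fertilization) and dispersed into single cells with trypsin. The trypsin concentration in the labels differs between samples and is not reported here, and its part in the results was not tested. Wild-type larvae (WT) and a double mutant that lacks srebf1, the paralog of srebf2 (srebf1-/-;sec31anju221), with 3 libraries each, are used for comparison. Both groups compared therefore carry the sec31a mutation, which is a gene trap insertion that leaves a hypomorph and fuses a shortened Sec31a to GFP. The srebf2 allele is a small CRISPR deletion in a stable line, so reads from the remaining exons still count. How many larvae went into a library is not given in the sources used here.

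Sec31a is an outer coat subunit of COPII, the coat that buds transport vesicles from the endoplasmic reticulum (ER) toward the Golgi. Srebp2, the product of srebf2, is a membrane-bound transcription factor that itself needs this route. Scap escorts it in COPII vesicles to the Golgi when ER cholesterol is low, the site-1 and site-2 proteases (mbtps1 and mbtps2) cut it there, and the freed part enters the nucleus and activates genes of cholesterol synthesis and uptake. Insig proteins hold Scap and Srebp in the ER when cholesterol is plentiful. In the liver the hepatocyte makes most plasma proteins, lipoproteins and bile, all of which leave through the same secretory pathway.

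Total counts per library were 20539492 to 20597028 in the sec31a mutant and 18918025 to 19007022 in the srebf2 double mutant. Levels are given as CPM, read counts relative to the library total multiplied by its TMM factor. A level can be compared between libraries but not between genes of different length. The factors were 0.7608 to 0.7616 in the sec31a mutant and 0.5598 to 0.5627 in the srebf2 double mutant. They were 0.704 to 0.7082 in the srebf1 double mutant and 0.4837 to 0.4884 in WT. A lower factor raises all levels of a library, so CPM do not add up to a common total. Summed levels below carry these factors and are not shares of reads. The 3 libraries of a genotype differed by little more than sampling noise, with a variance over mean of 1.81 to 1.85 for genes with 10 to 2000 counts and 1.86 to 2.1 for genes with 2000 to 10000 counts over the 4 genotypes, where a 10% variation between dissections would give 43.6 to 45.2 in the latter class. They were therefore counted as 1 sample, differences between genotypes have no replicate check, and no p-value is given. Values of the 3 libraries and standard errors (SE) describe sequencing precision only. A gene is called here when its levels differed more than 2-fold and the edgeR test between libraries, adjusted over all 30792 genes tested, stayed below a false discovery rate of 0.001. In bulk tissue, fewer cells of a type and less RNA per cell cannot be told apart.

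Loss of srebf2 went with a broad change of the liver transcriptome. In the double mutant 2967 genes were called higher (9.64% of genes tested) and 4492 were called lower (14.6%) than in the sec31a mutant, and the median log2 fold change of all genes was −0.43. This split depended on expression level and on scaling. Of 6657 genes that averaged 10 CPM or more in either genotype, 1696 (25.5%) were higher and 1208 (18.1%) lower, with a median of 0.19. Counts of list members called below are to be read beside these shares and those over all genes. Fewer genes reached 1 CPM before scaling in the double mutant (11627 to 11909) than in the sec31a mutant (15396 to 15433). With RLE size factors the calls were 3529 higher and 3515 lower and the median −0.27, and with TMM factors taken from well expressed genes they were 2412 higher and 5710 lower and the median −0.61, so the medians of gene lists below move by about the same shift. When the 3 libraries of each genotype were summed and a coefficient of variation between dissections of 0.2 or 0.4 was assumed, 3031 and 111 genes were called.

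Each gene's mean level in both genotypes shows which families lay apart from the rest.

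**Figure D1:**
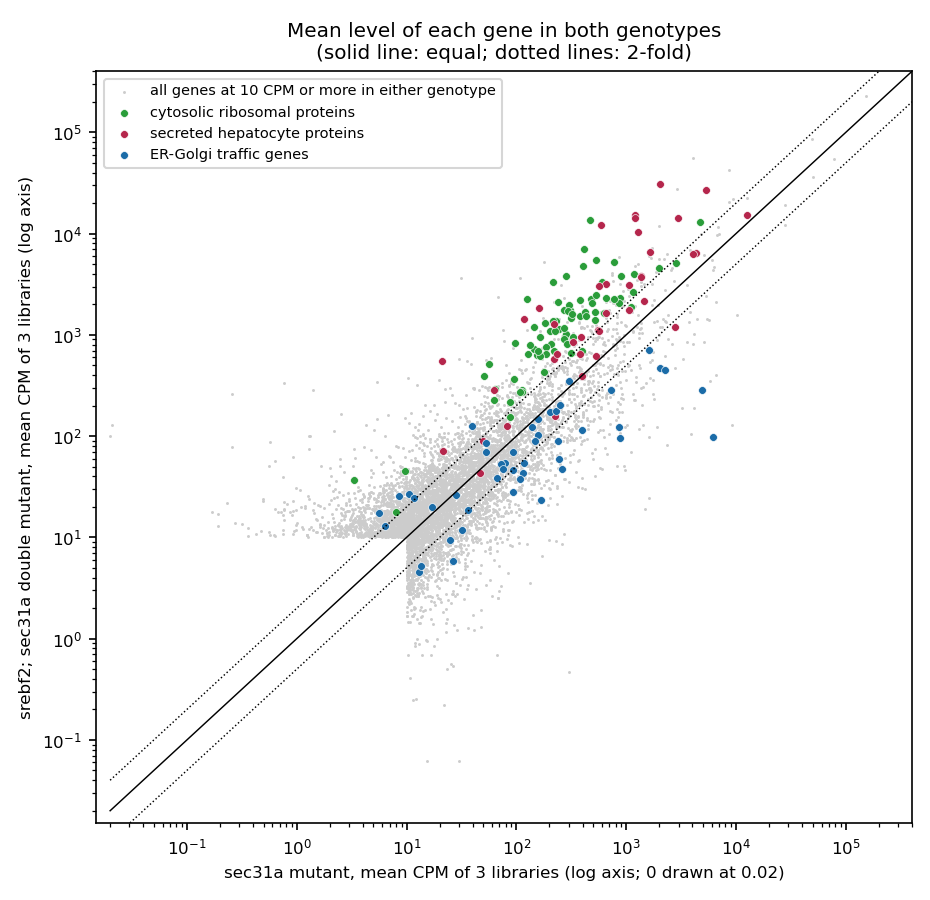
Mean CPM of 3 libraries in the sec31a mutant (x axis) and in the srebf2 double mutant (y axis), both on log axes, for the 6657 genes with at least 10 CPM in either genotype (grey), with cytosolic ribosomal protein genes in green, secreted hepatocyte proteins in red and ER-Golgi traffic genes in blue. The green and most of the red points lie above the line of equal level, and the blue points with the highest levels in the sec31a mutant lie below it. Points at 0 are drawn at 0.02.

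The disrupted gene was read first. srebf2 (ENSDARG00000063438) had 3.83, 3.89 and 5.63 CPM in the sec31a mutant libraries and 1.22, 0.846 and 0.940 CPM in the double mutant libraries. The groups did not overlap, and srebf2 was called lower with a log2 fold change of −2.14 (SE 0.281). WT had a mean of 4.68 CPM and the srebf1 double mutant 2.99 CPM, so the level in the sec31a mutant lay close to that in WT. Because all these levels are of a few CPM, the fold is less precise than for the genes below.

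The rest of the Srebp machinery was lower or little changed. Of the 7 genes of this system, 3 were called lower (srebf2, srebf1 and scap) and 0 higher. One of them, srebf2, is the disrupted gene itself. Over all genes 14.6% were lower and 9.64% higher. The 3 called genes averaged below 10 CPM in both genotypes, and the median of the 3 members at 10 CPM or more was −0.07. With summed libraries srebf1 and scap were not called at the assumed variation of 0.2. srebf1 (ENSDARG00000067607), which encodes the factor that drives fatty acid synthesis, had 1.72, 1.53 and 1.47 CPM in the sec31a mutant and 0.281, 0.376 and 0.564 CPM in the double mutant. Its log2 fold change was −1.93 (SE 0.454), and the call was lost with DESeq2, in a fit to the 6 libraries alone, and without srebf2 double mutant replicate 1, where the value was −1.73. The srebf1 double mutant had a mean of 0.457 CPM of srebf1 and the srebf2 double mutant 0.407 CPM. Levels this low rest on few reads, and the srebf1 allele is itself a deletion, so they are not like measures. scap, the escort, had 5.17, 4.34 and 5.56 CPM against 1.5, 1.69 and 2.26 CPM and a log2 fold change of −1.47 (SE 0.238). insig1, which retains Scap and is itself a Srebp target, had 70.0, 72.4 and 71.4 CPM in the sec31a mutant and 92.1, 92.3 and 95.7 CPM in the double mutant. Its log2 fold change of 0.39 (SE 0.0387) did not reach the fold required, although the libraries did not overlap. The log2 fold changes of insig2 (0.77, SE 0.409), mbtps1 (−0.07, SE 0.119) and mbtps2 (−0.85, SE 0.0956) were not called either, and that of mbtps2 was called with TMM factors from well expressed genes. Against the srebf1 double mutant, which had 31.0 CPM of insig1, the srebf2 double mutant was higher in insig1, with a log2 fold change of 1.59.

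The genes of cholesterol synthesis did not move together. Of 24 genes, 6 were called lower and 6 higher, and their median log2 fold change was 0.02, which became 0.19 with RLE size factors and −0.16 with TMM factors from well expressed genes. Under the latter scaling 3 were higher and 7 lower. With summed libraries 4 were lower and 2 higher at the assumed variation of 0.2, and 0 were called in either direction at 0.4. Summed over the list, the level was 382 to 395 CPM in the sec31a mutant libraries and 353 to 365 CPM in the double mutant libraries.

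Among genes above 10 CPM the falls lay in the mevalonate part of the pathway. hmgcra (ENSDARG00000052734), one of the paralogs of HMG-CoA reductase, the rate-limiting enzyme, had 62.7, 60.8 and 57.7 CPM in the sec31a mutant and 3.0, 3.01 and 1.97 CPM in the double mutant. All 3 double mutant libraries lay below the WT mean of 5.19 CPM, and the log2 fold change was −4.50 (SE 0.127). Its paralog hmgcrb had 52.8, 50.5 and 55.5 CPM against 38.4, 35.8 and 39.1 CPM, a log2 fold change of −0.49 (SE 0.0773) that was not called. How reads shared by such paralogs were counted is not given in the sources used here. pmvk, phosphomevalonate kinase, had 39.8, 44.7 and 44.0 CPM against 2.72, 3.10 and 3.38 CPM, a log2 fold change of −3.80 (SE 0.156). It was also low in the srebf1 double mutant, with 6.24 CPM, where hmgcra stood at 30.02 CPM. In the direct comparison of the double mutants both were called lower with srebf2 disrupted, with log2 fold changes of −3.49 for hmgcra and −1.02 for pmvk. mvk, the kinase before pmvk, fell from a mean of 2.96 CPM to 0.939 CPM (−1.65, SE 0.308).

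Later enzymes of the pathway went in both directions. ebp, a sterol isomerase, had 7.98, 8.10 and 7.03 CPM in the sec31a mutant and 0.656, 0.376 and 0.940 CPM in the double mutant, a log2 fold change of −3.54 (SE 0.310). The paralogs of squalene epoxidase were called lower from low levels. sqlea went from a mean of 1.77 CPM to 0.532 CPM (−1.72, SE 0.395). Its call was lost in the fit to the 6 libraries alone and without srebf2 double mutant replicate 3 (−1.42) or sec31a replicate 3 (−1.54). sqleb had 22 counts over the 3 sec31a mutant libraries and 0 over the 3 double mutant libraries, which makes it at least 4.99-fold lower if 3 counts over the group are taken as the limit of a count of 0. The call of sqleb was lost with DESeq2 and in the fit to the 6 libraries alone. It was also lost without any 1 of the double mutant libraries (a fitted log2 fold change of −5.96 each time) and without sec31a replicate 3 (−5.88). These levels were too low to weigh against those of hmgcra and pmvk.

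Among the 6 that rose, acat2, the cytosolic thiolase of the first step, was the most abundant, with 43.9, 41.0 and 38.9 CPM against 93.9, 92.8 and 95.0 CPM (log2 fold change 1.19, SE 0.0637). The srebf1 double mutant had 115 CPM of acat2, and the double mutants were not called different (−0.29). nsdhl, which removes methyl groups from sterols, had 0.511, 0.511 and 0.384 CPM against 3.75, 3.38 and 6.02 CPM, a log2 fold change of 3.20 (SE 0.354), and came close to the WT mean of 4.68 CPM. The sterol demethylase listed as CYP51A1 went from a mean of 0.511 to 2.50 CPM (2.28, SE 0.372). tm7sf2, a sterol reductase, had a mean of 6.81 CPM in the sec31a mutant and 14.9 CPM in the double mutant (1.13, SE 0.140). Its call was lost without srebf2 double mutant replicate 3 (0.95). The calls of idi1 and sc5d were as fragile. idi1 (log2 fold change 1.13) lost its call without srebf2 double mutant replicate 1 (0.99), and sc5d (1.52) lost it without srebf2 double mutant replicate 1 (1.42) or 3 (1.23) and without sec31a replicate 1 (1.44) or 3 (1.44). The calls of tm7sf2, idi1 and sc5d were also lost with TMM factors from well expressed genes.

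The remaining 12 genes were not called. hmgcs1, HMG-CoA synthase, had 40.9, 39.4 and 37.8 CPM against 41.7, 40.9 and 39.8 CPM, the same level within 0.05 on the log2 scale (SE 0.0817). fdps (−0.01) and DHCR7 (0.05) were as close, and msmo1 (−0.40), lss (−0.80), mvda (−0.85) and fdft1 (−0.82) had lower values that did not pass. Of these, mvda was called lower with TMM factors from well expressed genes. The values of lbr (0.70), ggps1 (0.65) and hsd17b7 (0.24) were higher and did not pass either.

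**Figure D2:**
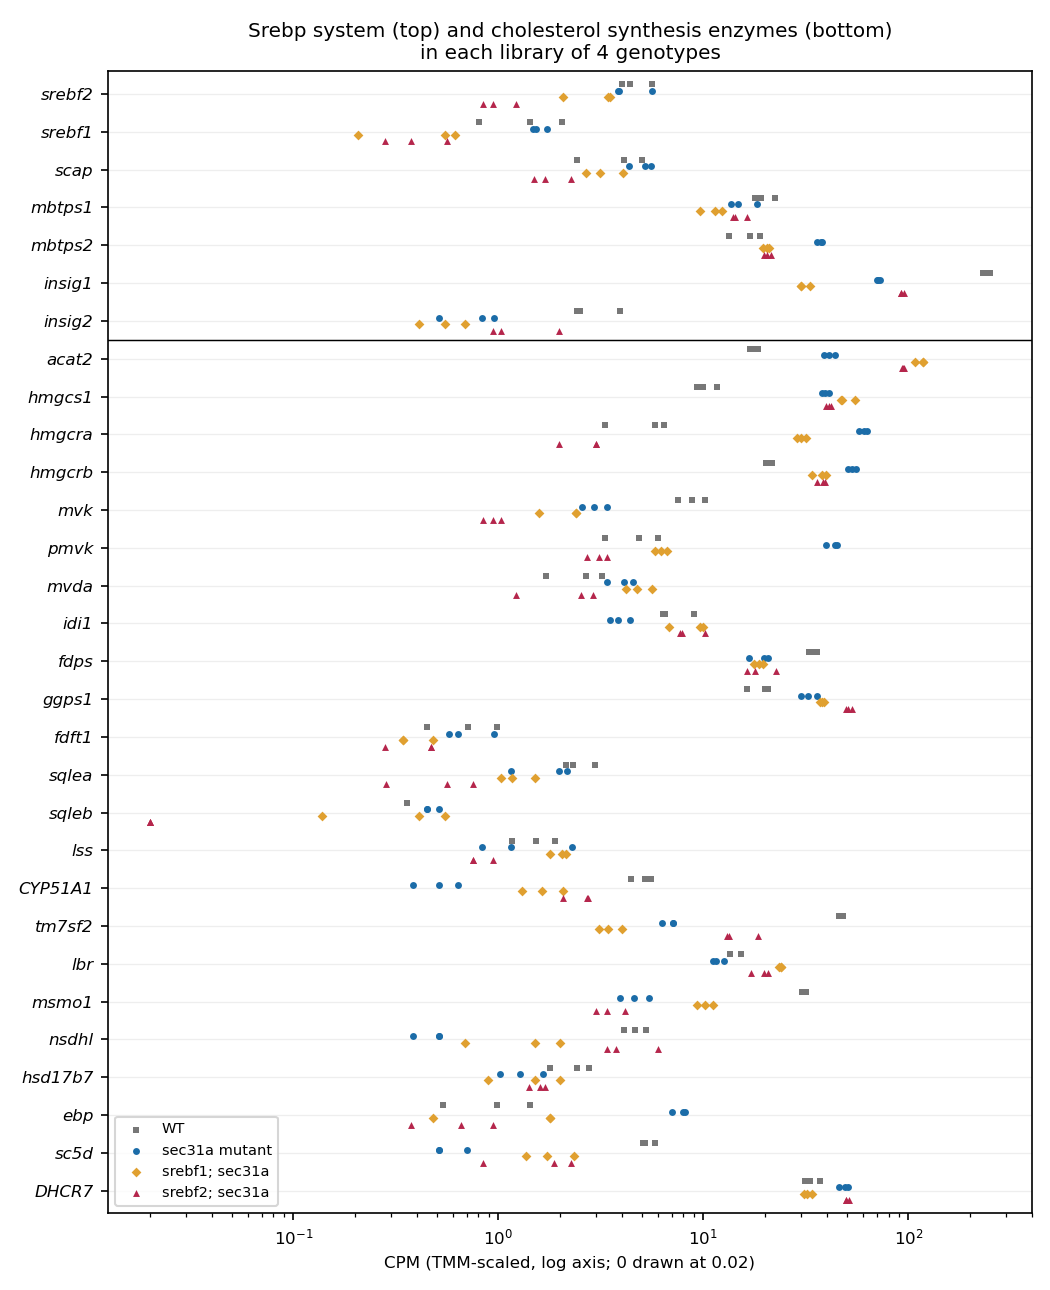
CPM in each of 3 libraries (points, log axis, 0 drawn at 0.02) of WT (squares), the sec31a mutant (circles), the srebf1 double mutant (diamonds) and the srebf2 double mutant (triangles) for 7 genes of the Srebp system and 23 of cholesterol synthesis. hmgcra, pmvk and ebp stand out, with all triangles far to the left of all circles, while the circles and triangles of hmgcs1, fdps and DHCR7 overlap.

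Sterol uptake and transport was likewise split, with 4 of 27 genes called higher (14.8%) and 6 lower (22.2%). Over all genes the shares were 9.64% and 14.6%. The median of the list was −0.53, but it was 0.47 over the 12 members at 10 CPM or more in either genotype. soat2, which esterifies cholesterol, had 34.5, 34.7 and 32.5 CPM in the sec31a mutant and 151, 161 and 161 CPM in the double mutant (log2 fold change 2.21, SE 0.0588). mylipa, a ligase that degrades the LDL receptor, rose from 14.3 to 35.7 CPM (1.32, SE 0.0886), while ldlra, the receptor itself, went from 65.3 to 90.3 CPM (0.47, SE 0.0556) and was not called. abca1b, a cholesterol exporter, fell from 56.9 to 16.2 CPM (−1.81, SE 0.0881), and stard3, a sterol transfer protein of late endosomes, from 32.4 to 13.3 CPM (−1.29, SE 0.112).

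Genes of fatty acid and triglyceride metabolism held single large changes. In fatty acid synthesis 4 of 22 genes were higher and 3 lower. me1, malic enzyme, which supplies NADPH, had 53.2, 53.7 and 52.6 CPM against 2.16, 4.23 and 3.76 CPM (log2 fold change −3.97, SE 0.141), and slc25a1b, the citrate carrier, had 3.90, 5.81 and 4.16 CPM against 25.6, 26.5 and 25.3 CPM (2.48, SE 0.142). fasn, fatty acid synthase, went from a mean of 20.0 to 17.7 CPM (−0.17, SE 0.10) and was not called. Of 28 triglyceride and lipid droplet genes 5 were higher and 5 lower. The abundant lipid droplet genes were among the lower ones. cidec, which fuses lipid droplets, had 1360, 1380 and 1370 CPM against 291, 307 and 296 CPM (−2.20, SE 0.0216), and g0s2, an inhibitor of lipolysis, had 5400, 5380 and 5430 CPM against 1420, 1400 and 1440 CPM (−1.93, SE 0.0168). The WT mean of g0s2 was 1374 CPM, and in WT cidec stood at 736 CPM. lpin1, a phosphatidate phosphatase, rose from 391 to 1158 CPM (1.57, SE 0.0215). In fatty acid oxidation 5 of 33 genes were higher and 1 lower, with acaa2, a thiolase, going from 137 to 377 CPM (1.46, SE 0.0349).

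Single apolipoprotein genes changed strongly in either direction. Of 28 genes of apolipoproteins and lipoprotein assembly 5 were higher (17.9%) and 8 lower (28.6%). Over all genes 9.64% were higher and 14.6% lower. Among genes at 10 CPM or more, as 21 of the 28 were, these shares were 25.5% and 18.1%, so the share higher was not raised. apoa1b, the main protein of high-density lipoprotein, had 8740, 8540 and 8430 CPM in the sec31a mutant and 42300, 42200 and 42900 CPM in the double mutant (log2 fold change 2.31, SE 0.0110). Both genes of apolipoprotein E fell. apoea had 73.4, 71.8 and 71.2 CPM against 3.94, 3.38 and 2.73 CPM (−4.43, SE 0.126) and apoeb 237, 232 and 230 CPM against 22.0, 20.8 and 20.6 CPM (−3.46, SE 0.0511). The srebf1 double mutant was low in them too, at 0.732 CPM of apoea and 70.21 CPM of apoeb. sar1b, the COPII GTPase that large lipoprotein carriers depend on, had 324, 326 and 334 CPM against 66.9, 63.5 and 69.8 CPM (−2.30, SE 0.0420), where WT had 68.8 CPM.

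Several abundant genes of vesicle traffic between ER and Golgi fell in the double mutant. Genes of this traffic (COPI coat, Arf GTPases, p24 proteins, KDEL receptors, SNAREs and tethers) were gathered after their values had been seen, so their counts are a description. Of 63, 23 were called lower (36.5%) and 8 higher (12.7%), the rest were not called, and the median was −0.73. Over all genes 14.6% were lower and 9.64% higher, with a median of −0.43. Among genes at 10 CPM or more, as 47 of the 63 were, 18.1% were lower and 25.5% higher. With summed libraries 12 were lower and 3 higher at the assumed variation of 0.2, and 1 was lower at 0.4. Summed, their level was 23500 to 23600 CPM in the sec31a mutant, 12800 to 12900 CPM in the srebf1 double mutant, 5200 to 5240 CPM in the srebf2 double mutant and 4270 to 4310 CPM in WT. arf4a (ENSDARG00000045989), a small GTPase of the early Golgi, had 6160, 6170 and 6160 CPM in the sec31a mutant and 95.1, 98.4 and 101 CPM in the double mutant, below the WT mean of 169 CPM. Its log2 fold change was −5.97 (SE 0.0244). arf4b had 880, 866 and 867 CPM against 93.2, 98.8 and 94.0 CPM (−3.19, SE 0.0328) and remained far above the WT mean of 1.46 CPM. sec22ba, an ER-Golgi SNARE, had 4870, 4880 and 4800 CPM against 281, 281 and 289 CPM (−4.09, SE 0.0209), where WT had 18.3 CPM and the srebf1 double mutant 2545 CPM.

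Some subunits of the COPI coat, picked after their values were seen, fell less far. copb2 fell from 867 to 124 CPM (−2.81, SE 0.0315), copz1 from 2245 to 448 CPM (−2.33, SE 0.0215) and cope from 2027 to 467 CPM (−2.12, SE 0.0210), while copa went from 156 to 102 CPM (−0.61) and was not called. ergic1 moved the other way, from 39.8 to 125 CPM (1.65, SE 0.0522). Against the srebf1 double mutant, where 4.48% of all genes were higher and 5.74% lower in the srebf2 double mutant, 0 of the 63 traffic genes were higher and 19 lower. Of the 14 COPII genes 4 were lower than in the sec31a mutant (sar1b, sar1ab, sec13 and sec16b) and 0 higher. sec13, the partner of Sec31, had 13.4, 16.2 and 14.6 CPM against 6.84, 6.86 and 5.26 CPM (−1.22, SE 0.159). sec31a itself had 2.62, 2.62 and 2.69 CPM in the sec31a mutant and 5.15, 5.92 and 3.76 CPM in the double mutant, against a WT mean of 19.5 CPM. Its log2 fold change of 0.90 (SE 0.218) was not called, but passed with DESeq2, with RLE size factors, in the fit to 6 libraries and without srebf2 double mutant replicate 3 (1.07). Its paralog sec31b had 7.66, 7.34 and 8.06 CPM against 4.78, 3.20 and 4.04 CPM (−0.94, SE 0.198), which was called without srebf2 double mutant replicate 1 (−1.09) and with TMM factors from well expressed genes.

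The genes that answer ER stress did not change as a block. Of 33 ER chaperones and ER-associated degradation genes 7 were called higher and 8 lower, and the median of −0.03 turned to 0.14 with RLE size factors and −0.21 with TMM factors from well expressed genes. derl1, a component of the export channel for misfolded proteins, had 5800, 5800 and 5760 CPM in the sec31a mutant and 342, 348 and 350 CPM in the double mutant (log2 fold change −4.06, SE 0.0197), and p4hb, protein disulfide isomerase, had 3700, 3750 and 3760 CPM against 1330, 1340 and 1320 CPM (−1.49, SE 0.0162). Together they made most of the fall of the summed level of the list, from 19200 to 19300 CPM down to 10000 to 10100 CPM. hspa5 (BiP), the main ER chaperone, had 100, 98.7 and 102 CPM against 136, 139 and 147 CPM (0.49, SE 0.0441) and was not called. calr3a, a calreticulin, rose from 150 to 728 CPM (2.28, SE 0.0285), pdia3 from 180 to 495 CPM (1.46, SE 0.0304) and sel1l from 20.4 to 59.25 CPM (1.54, SE 0.0797). All 3 stood as high in the srebf1 double mutant, at 824, 633 and 69.4 CPM.

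Of 32 factors of the unfolded protein and integrated stress responses 2 were higher and 6 lower, with a median of −0.48. ddit3 (Chop), a pro-apoptotic factor downstream of Atf4, had 135, 146 and 138 CPM against 24.9, 24.6 and 22.3 CPM (−2.54, SE 0.0713), near the WT mean of 16.1 CPM. psat1, an Atf4 target of serine synthesis, fell from 103 to 20.8 CPM (−2.31, SE 0.0724). atf4a rose from 6.41 to 14.2 CPM (1.15, SE 0.147), a call lost with TMM factors from well expressed genes, and trib3 from 35.8 to 82.9 CPM (1.21, SE 0.0601). xbp1 (0.75), atf6 (−0.13) and atf4b (0.01) were not called. Of 23 genes of p53 and apoptosis 8 were lower and 2 higher, among them mdm2, the p53 inhibitor (15.7 to 4.07 CPM), and phlda3, a p53 target (0.766 to 18.8 CPM).

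Cytosolic ribosomal protein genes rose almost throughout. Of 81 genes 75 (92.6%) were called higher and 0 lower, with a median log2 fold change of 2.07, and 75 were called in each fit with 1 library left out. Their summed level was 34700 to 34800 CPM in the sec31a mutant, 80800 to 81100 CPM in the srebf1 double mutant, 153000 to 154000 CPM in the srebf2 double mutant and 55700 to 56200 CPM in WT. rpl5b had 463, 463 and 473 CPM in the sec31a mutant and 13600 CPM in each double mutant library (log2 fold change 4.87, SE 0.0176), and its paralog rpl5a had 417, 409 and 405 CPM against 6930, 6960 and 6990 CPM (4.08, SE 0.0184). rps19 was among the 6 not called, with 389, 390 and 411 CPM against 666, 708 and 687 CPM (0.79, SE 0.0250). Against the srebf1 double mutant 27 of the 81 were called higher and 0 lower. With summed libraries 59 were called at the assumed variation of 0.2 and 1 at 0.4. Mitochondrial ribosomal protein genes did not share the rise, with 8 of 75 higher and 9 lower. Nuclear genes of oxidative phosphorylation had 22 of 94 higher (23.4%) and 3 lower, with a median of 0.60. Of the 94, 84 averaged 10 CPM or more in either genotype, and 25.5% of all genes at that level were higher, so this share was not raised.

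Secreted hepatocyte proteins were mostly higher. Of 44 genes 25 (56.8%) were called higher and 2 lower, with a median of 1.35. With summed libraries 16 were called higher at the assumed variation of 0.2 and 1 at 0.4. Their summed level was 52600 to 52700 CPM in the sec31a mutant and 194000 to 196000 CPM in the double mutant, beyond the 114000 to 115000 CPM of WT. gc, the vitamin D carrier, had 600, 596 and 583 CPM against 12000, 12000 and 12100 CPM (log2 fold change 4.34, SE 0.0165). hp, haptoglobin, which binds free hemoglobin, had 20.9, 20.0 and 21.7 CPM against 553, 566 and 542 CPM (4.73, SE 0.0495), while WT had 1.43 CPM. ttr, the thyroid hormone and retinol carrier, rose from 161 to 1835 CPM (3.51, SE 0.0232). shbg, the sex steroid carrier, went against the list, with 2740, 2780 and 2770 CPM falling to 1160, 1200 and 1190 CPM (−1.23, SE 0.0161), as did hpxa (−1.85, SE 0.203). The direct comparison with the srebf1 double mutant called 12 of the 44 higher and 1 lower.

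Hepatocyte proteins listed as not secreted moved the same way in part. Of 27, 12 were called higher (44.4%) and 2 lower (7.41%), with a median of 0.81. Over all genes 9.64% were higher and 14.6% lower. Among genes at 10 CPM or more, as 21 of the 27 were, these shares were 25.5% and 18.1%. The summed level of the list went from 17700 CPM in the sec31a mutant to 37600 to 37700 CPM. Its most abundant member in the double mutant was apom, a secreted apolipoprotein, so this sum is not of non-secreted proteins alone. gamt, of creatine synthesis, had 259, 256 and 246 CPM against 3110, 3060 and 3050 CPM (3.60, SE 0.0213), and bhmt, of methionine synthesis, rose from 54.1 to 299 CPM (2.47, SE 0.0412). Of 36 genes of glucose and glycogen metabolism 15 were higher and 4 lower. gapdh had 1960, 1970 and 1970 CPM against 11800, 12000 and 11800 CPM (2.59, SE 0.0138). ppp1r3b, which brings a phosphatase to glycogen, fell from 103 to 10.02 CPM (−3.36, SE 0.0853). Antioxidant genes had 12 of 29 higher and 2 lower, with hmox1a, heme oxygenase, at 18.1 and 146 CPM (3.01, SE 0.0559) and nqo1, a quinone reductase, at 168 and 48.5 CPM (−1.80, SE 0.0448). Among hepatocyte transcription factors and nuclear receptors 8 of 28 were higher (28.6%) and 2 lower (7.14%). Of these, 18 averaged 10 CPM or more, and the share higher was near the 25.5% of all genes at that level. cebpb, a factor of the acute-phase response, rose from 58.2 to 589 CPM (3.34, SE 0.0384), whereas nr5a2 fell from 132 to 46.9 CPM (−1.50, SE 0.0489).

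The share of each list called in either direction is drawn beside the share of all genes. Some genes are in more than 1 list, so the lists are not separate results. Examples are c3a.1 (secreted proteins and complement) and sar1b (lipoprotein assembly and COPII). Genes that averaged 10 CPM or more were called more often, 25.5% higher and 18.1% lower. Lists of mostly well expressed genes are to be read beside those shares, such as ER chaperones and ER-associated degradation genes with 21.2% higher.

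**Figure D3:**
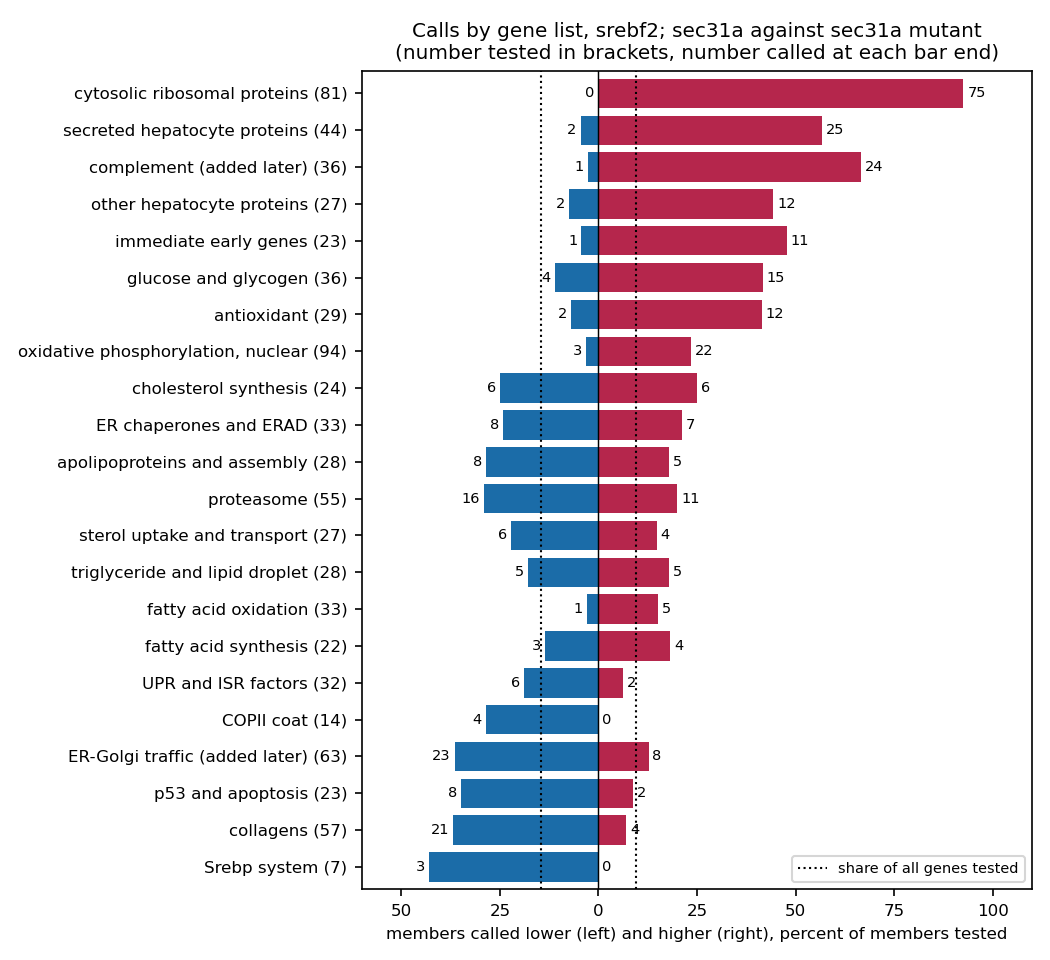
Share of the members of 22 gene lists (percent, x axis) called lower (blue, left) and higher (red, right) in the srebf2 double mutant than in the sec31a mutant, with the number tested in brackets and the number called at each bar end. The dotted lines mark 9.64% higher and 14.6% lower over all genes, and the bars of ribosomal proteins (75 of 81), complement (24 of 36) and secreted hepatocyte proteins (25 of 44) reach farthest to the right.

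Immune genes were among the largest rises. The immune families below were gathered by symbol after their values had been seen, so their counts are a description. They are to be read beside the 9.64% of all genes called higher and 14.6% called lower. Among genes at 10 CPM or more these shares were 25.5% and 18.1%. Of 36 complement genes 24 were higher and 1 lower, with a median of 1.53. c3a.1, the central component, had 2030, 2030 and 2050 CPM in the sec31a mutant and 30600, 30700 and 30800 CPM in the double mutant (log2 fold change 3.92, SE 0.0134). c7b, a component of the membrane attack complex, had 4.09, 6.0 and 6.07 CPM against 353, 329 and 337 CPM (5.98, SE 0.0742), and c1r, a protease that starts the classical pathway, had 1.72, 1.4 and 0.831 CPM against 106, 93.6 and 98.1 CPM (6.23, SE 0.132). Both were low in the srebf1 double mutant, at 11.9 CPM of c7b and 3.61 CPM of c1r, and were called higher in the direct comparison (4.83 and 4.78). The exception was cfh, an inhibitor of complement, which had 856, 855 and 829 CPM against 214, 223 and 221 CPM (−1.95, SE 0.0242).

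Acute-phase proteins had 11 of 26 genes higher and 2 lower. The serum amyloid gene listed as SAA2 had 0.702, 0.638 and 0.575 CPM against 61.6, 53.1 and 56.3 CPM (6.46, SE 0.201). itln3, an intelectin, had 178, 177 and 179 CPM against 5280, 5210 and 5320 CPM (4.89, SE 0.0216). A leukocyte chemotaxin gene, 1 of a pair listed as LECT2 (ENSDARG00000090889), rose from 109 to 3634 CPM (5.06, SE 0.0244). crp2, of the C-reactive protein family, fell from 38.7 to 5.85 CPM (−2.72, SE 0.108).

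Of 52 chemokine genes, which encode attractants of leukocytes, 10 were higher (19.2%) and 5 lower (9.62%), with a median of −0.01. cxcl11.1 (ENSDARG00000100662) had the largest rise among the genes named by rule, with 0.128, 0.128 and 0.511 CPM against 258, 261 and 268 CPM (9.96, SE 0.136). ccl19a.1 had 69.6, 67.3 and 68.9 CPM against 2370, 2350 and 2370 CPM (5.11, SE 0.0286). ccl39.2 fell from 47.7 to 1.31 CPM (−5.17, SE 0.133), and it was as low in the srebf1 double mutant, at 0.640 CPM. Feedback inhibitors of cytokine signalling had 9 of 22 genes higher and 3 lower, with socs3a, an inhibitor of Jak-Stat signalling, at 40.2, 43.8 and 40.5 CPM against 298, 293 and 309 CPM (2.85, SE 0.0504) and nfkbiaa, an inhibitor of NF-kappaB, rising from 11.3 to 73.5 CPM (2.71, SE 0.102). Class I antigen presentation had 12 of 34 higher and 2 lower, with b2m, beta-2 microglobulin, going from 0.916 to 23.1 CPM (4.65, SE 0.222). The 2 lower were mhc1zea (14.2 to 2.82 CPM, −2.33, SE 0.201) and mhc1lca (56.2 to 27.4 CPM, −1.04, SE 0.0806). The call of mhc1lca was lost with DESeq2 and with RLE size factors. Over the 9 members at 10 CPM or more the median was 0.185. Interferon-stimulated genes had 8 of 45 higher and 5 lower and a median of −0.36, with mxc, an antiviral GTPase, rising from 4.11 to 77.6 CPM (4.24, SE 0.129) and its relative mxa falling from 1.94 to 0.72 CPM (−1.42).

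The listed markers of leukocytes were low beside these rises. The summed level of 21 leukocyte markers was 31.5 to 35.1 CPM in the sec31a mutant, 63.0 to 69.3 CPM in the srebf1 double mutant and 39.9 to 42.7 CPM in the srebf2 double mutant, with 3 called higher and 2 lower. At least 1 CPM was reached by 15 of the 21 in the sec31a mutant and by 9 in the srebf2 double mutant, and 0 of them were at 0 in either. ptprc, the pan-leukocyte marker CD45, had means of 0.958 and 0.939 CPM, and mpeg1.1, a macrophage marker, 5.39 and 4.32 CPM. cd74a, an invariant chain gene, rose from 0.617 to 10.5 CPM (4.07, SE 0.291), alone about as much as the sum rose. cd79a, of the B cell receptor, is not among the 21. It fell from 66.5 to 0.689 CPM, and its level in the sec31a mutant was above the sum of the listed markers.

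**Figure D4:**
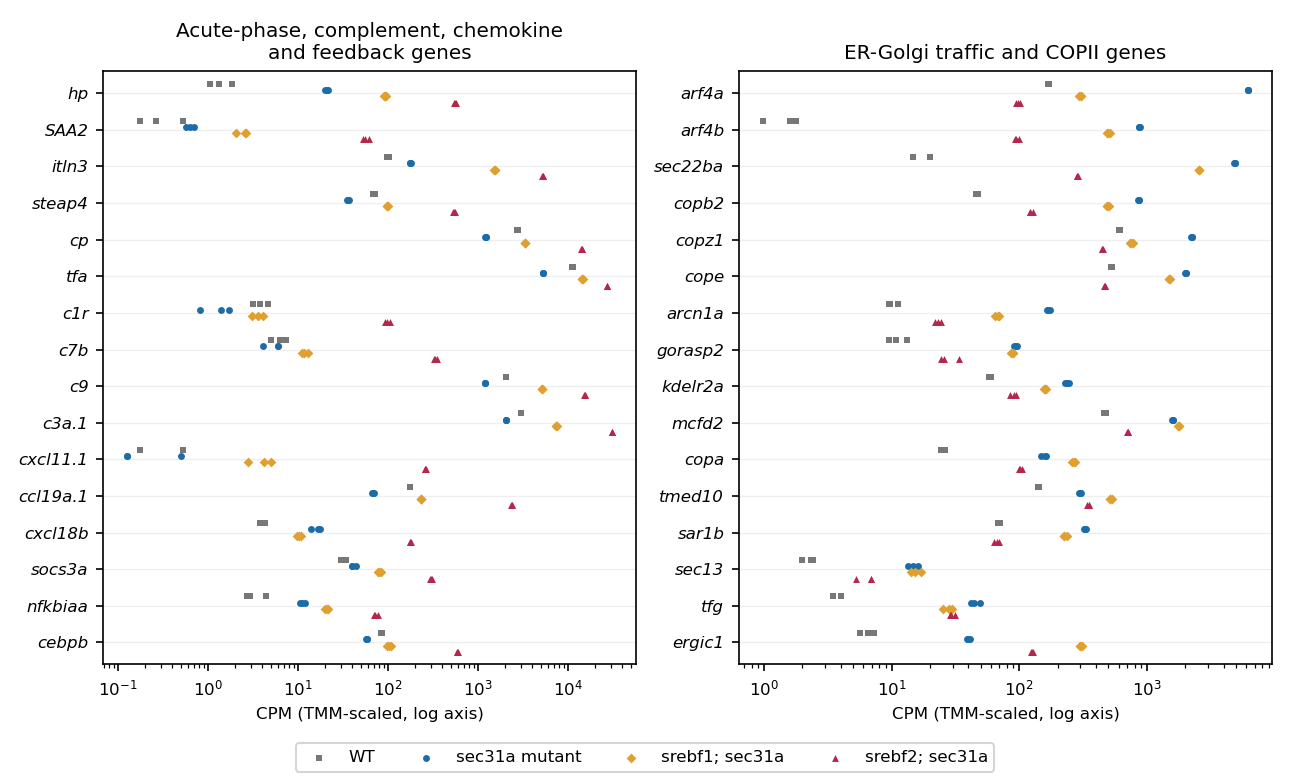
CPM in each of 3 libraries (points, log axis) of WT (squares), the sec31a mutant (circles), the srebf1 double mutant (diamonds) and the srebf2 double mutant (triangles) for 16 immune genes (left) and 16 genes of ER-Golgi traffic and COPII (right), picked after their values were seen. On the left the triangles are the rightmost points of each gene, and on the right the circles of arf4a, arf4b, sec22ba, copz1 and cope are the rightmost points, well beyond the triangles.

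Markers of other tissues also differed. The intestinal list went from 3310 to 3350 CPM down to 638 to 660 CPM, almost entirely through fabp2, a fatty acid carrier of enterocytes (3265 to 574 CPM, log2 fold change −2.51), with 1 of 18 genes lower and 0 higher. The exocrine pancreas list summed to 143 to 148 CPM in the sec31a mutant and 71.0 to 76.3 CPM in the double mutant, carried by amy2a, an amylase (69.8 to 2.97 CPM), with 3 of 20 genes higher and 6 lower. It summed to 986 to 988 CPM in the srebf1 double mutant and 2090 to 2100 CPM in WT. Erythrocyte markers summed to 158 to 171 CPM and 360 to 397 CPM, with 4 of 14 higher and 2 lower. Biliary markers summed to 1940 to 2000 CPM and 4960 to 4980 CPM, with 5 of 13 higher and 1 lower, and anxa4, an annexin, made up the largest share (936 to 2706 CPM). The sum of stellate and mesenchymal markers went from 354 to 368 CPM up to 838 to 857 CPM, but steap4, a metalloreductase, alone rose by more than that (35.8 to 546 CPM), and of the 17 genes 4 were higher and 5 lower. Nearly all of the difference in the epidermal sum, from 140 to 142 CPM up to 315 to 332 CPM, came from krt91, a keratin (60.6 to 236 CPM), with 3 of 14 genes higher and 2 lower. Endothelial (107 to 110 and 98.2 to 108 CPM), muscle (46.1 to 50.5 and 37.2 to 39.7 CPM) and neural markers (31.1 to 33.2 and 24.7 to 28.4 CPM) were low in both, as were those of the endocrine pancreas (5.17 to 6.58 and 3.29 to 5.55 CPM) and of swim bladder and yolk (31.1 to 33.0 and 24.3 to 24.5 CPM). The part of these cells in the results above was not tested. Of the hepatocyte markers listed as not secreted, apom among them, 27 of 27 averaged 1 CPM or more in the sec31a mutant and 25 in the double mutant. This level does not single out a tissue, because 13 of 13 biliary and 15 of 16 endothelial markers reached it in both genotypes.

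Thyroid hormone genes held changes in opposite directions. dio1, the liver deiodinase, had 2.68, 2.55 and 1.34 CPM in the sec31a mutant and 119, 106 and 111 CPM in the double mutant (5.67, SE 0.101), with 53.3 CPM in WT. dio2, another activating deiodinase, had 338 counts over the 3 sec31a mutant libraries and 0 over the 3 double mutant libraries, at least 76.6-fold lower by the same limit of 3 counts over the group. klf9, a factor induced by thyroid hormone, had 7.47, 5.68 and 7.42 CPM against 62.4, 61.1 and 66.2 CPM (3.20, SE 0.0943), near the 55.3 CPM of WT. Of the 11 genes of this list 5 were higher and 1 lower. Immediate early genes had 11 of 23 higher and 1 lower. Collagens had 4 of 57 higher and 21 lower, with a median of −0.87. Only 10 of the 57 averaged 10 CPM or more in either genotype, and their median was 0.03. The number lower was 13 in the fit to 6 libraries and 26 with TMM factors from well expressed genes. It was 3 with summed libraries at the assumed variation of 0.2. Of the other lists, proteasome subunits had 11 of 55 higher and 16 lower, cytochrome P450 genes 11 of 45 higher and 9 lower, genes of the mitochondrial genome 1 of 13 higher and 2 lower, cell cycle genes 9 of 35 higher and 3 lower, cytosolic heat shock genes 4 of 17 higher and 2 lower, and bile acid genes 1 of 17 higher and 2 lower.

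The 10 largest rises and 10 largest falls among genes with a symbol and 10 CPM or more were chosen by their size in these libraries and are given as a description. Beside the immune genes above, the rises included stx11a, a SNARE of secretory granules (0.575 to 87.9 CPM), noxo1a, an organizer of NADPH oxidase (0.916 to 62.2 CPM), bnip4, of the Bnip family of mitophagy receptors (0.554 to 51.2 CPM), and the cytochrome oxidase subunit listed as COX6A1 (2.55 to 167 CPM). bnip4 was as high in the srebf1 double mutant, at 72.2 CPM, and COX6A1 had 113 CPM in WT.

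Several of the largest falls started from very high levels. ggcx, the vitamin K-dependent carboxylase that activates clotting factors, had 9170, 9190 and 9230 CPM in the sec31a mutant and 128, 129 and 126 CPM in the double mutant (−6.17, SE 0.0205). lrba, of vesicle traffic, had 3920, 3880 and 3960 CPM against 105, 103 and 109 CPM (−5.21, SE 0.0237), and acbd3, a Golgi scaffold, had 2330, 2340 and 2350 CPM against 85.7, 80.3 and 78.2 CPM (−4.84, SE 0.0286). These genes were as low in the srebf1 double mutant, at 102, 91.9 and 84.3 CPM, and were not called between the double mutants. WT stood above both double mutants, at 2535 CPM of ggcx, 458 CPM of lrba and 150 CPM of acbd3. tspan15, a tetraspanin, had 1630, 1650 and 1610 CPM against 20.8, 26.1 and 25.9 CPM (−6.07, SE 0.0334). There the srebf1 double mutant lay between, at 195 CPM, and WT had 1406 CPM. cd79a, of the B cell receptor (66.5 to 0.689 CPM), and tubb5, a beta-tubulin (261 to 8.67 CPM), were high in the sec31a mutant and low in WT, at 2.86 and 0.536 CPM. Of the 20 genes 15 were also called between the srebf2 and srebf1 double mutants, 9 of the rises and 6 of the falls. Over all genes 4.48% were higher and 5.74% lower there. That comparison reuses the srebf2 double mutant libraries by which the 20 were chosen, so the count is a description only.

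**Figure D5:**
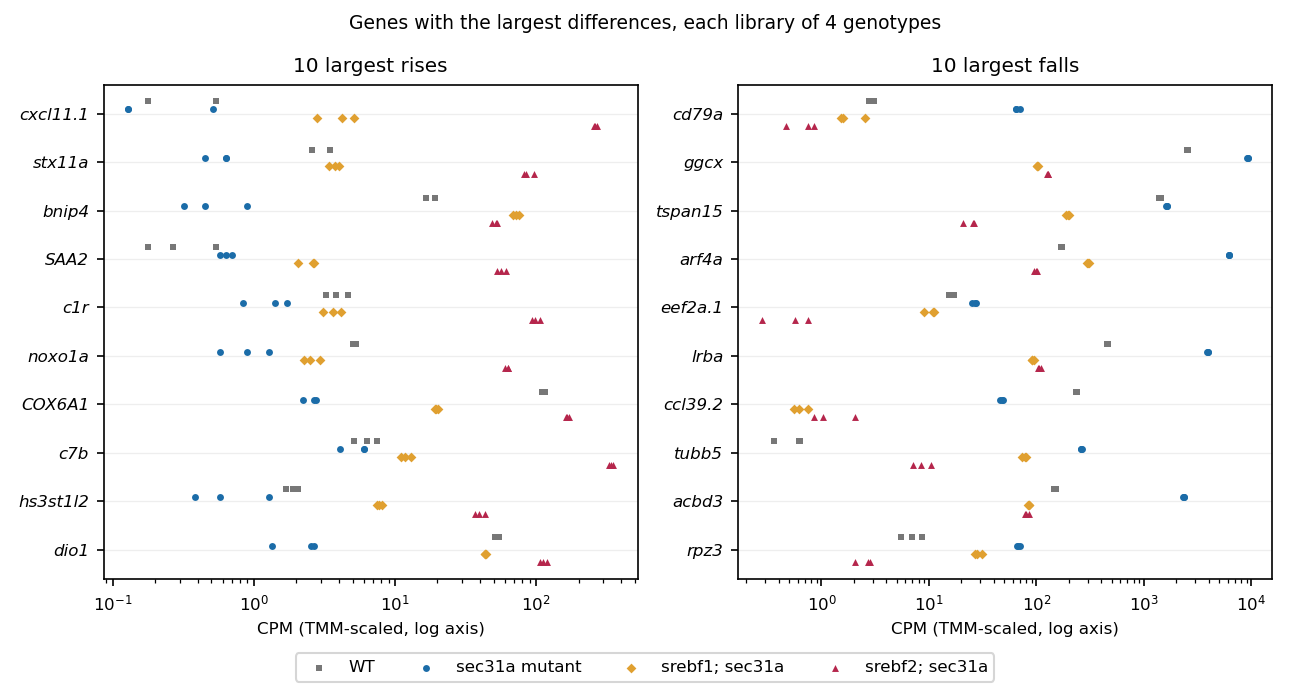
CPM in each of 3 libraries (points, log axis) of WT (squares), the sec31a mutant (circles), the srebf1 double mutant (diamonds) and the srebf2 double mutant (triangles) for the 10 largest rises (left) and falls (right) between the sec31a mutant and the srebf2 double mutant. For ggcx, lrba, acbd3 and ccl39.2 the diamonds lie beside the triangles, and for c1r, c7b and cxcl11.1 they lie far to their left.

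Genes that lie next to the disrupted loci were read separately. Of 39 tested neighbours of srebf2 in the order of a reference gene table (up to 25 on each side), 6 were called higher and 2 lower, with a median of −0.05, and of 50 neighbours of sec31a 11 were higher and 6 lower, with a median of −0.13. Over all genes the shares were 9.64% and 14.6%.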

How the data were processed

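Livers of 7 genotypes at 7 dpf were sequenced by the authors with 3 libraries per genotype. The submitters' processing notes name FastQC 0.11.9, HISAT2 2.1.0, SAMtools 1.10 and featureCounts 1.6.0 with the build GRCz11. The deposited counts are whole reads per Ensembl gene, not normalized. The annotation release, the strand setting and the handling of multiply mapped reads are not given in the sources used here, so values of paralogs and overlapping genes are uncertain.

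The 21 libraries were fitted together with edgeR 4.0.16 (R 4.3.3), using TMM factors, a minimum scaled total of 10 counts per gene and the quasi-likelihood test with 1 coefficient per genotype. DESeq2 1.42.0, other scalings and filters, a fit to the 6 libraries, a replicate block, other thresholds, libraries left out in turn, and summed libraries tested with an assumed variation were the alternatives. In simulated libraries of the srebf2 double mutant against the sec31a mutant, with 200 genes changed 4-fold among 31034 tested, 97% of them were recovered and 0 others were called. There each library varied independently with a coefficient of variation of 0.1, more than the real libraries of a genotype did. The simulation therefore checks the code and not the calls between genotypes, whose libraries count as 1 sample. Replicate numbers did not pair the libraries.

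Of 32520 identifiers 29201 had a symbol, and 11211 zebrafish symbols were set by comparing gene order with a RefSeq table. That table is of another build, so no coordinates are given, and no sequences are shown.

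Members and lists were chosen with earlier results of these data known, and the immune families and the ER-Golgi traffic list were added after the values were seen. Ribosomal and oxidative phosphorylation genes were taken by symbol, less kinases, binding proteins and assembly factors with like symbols. The genes named by rule were the disrupted genes and their paralogs, all members of the Srebp and cholesterol synthesis lists, up to 3 called members per direction of each other list that averaged 10 CPM or more, and the 10 largest rises and falls. Other genes were named after their values were seen: atf4b, atf6, copa, copb2, cope, copz1, dio2, fasn, hpxa, hspa5, ldlra, mpeg1.1, mxa, nfkbiaa, p4hb, pdia3, ptprc, rps19, sec16b and xbp1. A few list members counted in the totals are not reported here by name.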

Additional observations from a re-analysis of the deposited data

How the results depend on the processing

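Of 202 genes named by rule, 0 reversed their direction past the threshold under the alternatives run, which did not follow the genes named after their values were seen. Most of the 202 were chosen by large called changes in the same libraries that the alternatives reused, so a reversal was hardly possible. Of the 202, 184 were called, 22 of these lost the call in another fit and 4 gained one, and with summed libraries 130 were called if dissections are assumed to vary by 0.2 (coefficient of variation) and 31 by 0.4. The median log2 fold change of all genes between the srebf2 double mutant and the sec31a mutant was −0.27 with DESeq2, −0.266 with RLE size factors, −0.607 with TMM factors from genes at 10 CPM or more, −0.229 in the fit to 6 libraries and 0.193 over genes at 10 CPM or more. The share of calls that were higher was 39.8%, against 52.8% with DESeq2, 50.1% with RLE, 53.2% in the fit to 6 libraries and 29.7% with the TMM factors from well expressed genes. Under those factors 3 cholesterol genes were higher. Keeping only genes at 10 CPM or more left 2904 calls, 1696 higher and 1208 lower, with 2 cholesterol genes in each direction and 0 Srebp system genes lower, because fewer genes were tested. A false discovery rate of 0.05 with any fold gave 15692 calls, 5871 higher and 9821 lower. Summed libraries gave 3031 calls at 0.2 (1476 higher, 1555 lower), with 1 Srebp system gene lower, 2 cholesterol genes higher and 16 secreted hepatocyte genes higher. At 0.4 they gave 111 (67 higher, 44 lower), with 0 Srebp system genes lower, 0 cholesterol genes in either direction, 1 secreted hepatocyte gene and 1 ribosomal protein gene higher. Against the srebf1 double mutant DESeq2 called 1177 genes lower. The cause of the other shifts was not tested.

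Leaving out 1 library at a time gave 6656 to 6952 calls, with 2820 to 2870 higher and 3797 to 4116 lower, a median of −0.455 to −0.415, and 4 to 6 cholesterol genes in each direction. With the replicate block there were 7417 calls, 2958 higher and 4459 lower, no call of the 202 genes changed, and 1 list count moved, that of collagens called lower, from 21 to 22. Same-numbered libraries correlated at −0.0231, 0.00694 and −0.0676 over 5200 genes and others at −0.0305 to 0.0537, so the numbers were not read as pairs. Why srebf1, sqlea, sqleb, idi1 and sc5d lost calls was not tested.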
